A study of Homo sapiens with 18 samples.

Results

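TXNIP and the ARRDC genes make up the alpha-arrestin family, here 5 named genes: TXNIP, ARRDC1, ARRDC2, ARRDC3 and ARRDC4. Their rows were taken by NCBI Gene ID from the gene table of each of 18 RNA libraries, and 4 of the 5 had a row in every library, among 21662 genes listed in any. ARRDC4 was listed in none of these files and was not analysed here. The family was selected on its measured response to icaritin, the fold changes of its members in the 3 lines below, so these differences are given as values with intervals and carry no test.

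SNT-8, SNK-10 and SNT-16, the 3 lines used, are cultured NK/T cell lymphoma cells, and all are labelled with the genotype WT. Cells of each line received DMSO, the solvent control, or icaritin, a prenylated flavonoid from Epimedium plants, for 12 h, with 3 replicate libraries in each of the 6 groups. The dose of icaritin is not given in the sources used here, nor is whether replicates were separate cultures, so every error and p-value reflects variation among the libraries only, which may be technical.

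Alpha-arrestins share the arrestin fold with the beta-arrestins and work as adaptors. Most carry PPxY motifs that bind the WW domains of NEDD4 family ubiquitin ligases, and they bring these ligases to membrane proteins, which are then ubiquitinated and sorted into endosomes. TXNIP is the best known member: it binds reduced thioredoxin, lowers glucose uptake by promoting the removal of glucose transporters from the cell surface, and is made in response to glucose through the MLXIP and MLX transcription factors. It is itself marked for degradation by the ligase ITCH and after phosphorylation by AMPK. ARRDC3 binds membrane protein cargo on endosomes, ARRDC1 recruits the ESCRT protein TSG101 to the plasma membrane and drives the budding of small vesicles, and ARRDC2 is a less studied adaptor of the same kind.

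The bases upstream of a TXNIP start and of an ARRDC3 start are shown because these were the 2 members with the largest differences after icaritin. Both come from the RefSeq promoter table of GRCh38.p14, which has windows for all 5 named genes, while the build behind the deposited values is not given in the sources used here. Both genes lie on the minus strand and the sequences read 5′ to 3′ in the direction of the gene. The TXNIP stretch lies at chr1:145996601-145996829, upstream of a start at base 145996579 (21 bases annotated as UTR were left out). The ARRDC3 stretch lies at chr5:91380098-91380347, directly upstream of a start at base 91380097, and overlaps an exon of a longer ARRDC3 transcript. Capitals mark, in TXNIP, 2 CCAAT boxes (the first read on the other strand as ATTGG), the forkhead core GTAAACA and the carbohydrate response element, and in ARRDC3 the same forkhead core read on the other strand.
TXNIP: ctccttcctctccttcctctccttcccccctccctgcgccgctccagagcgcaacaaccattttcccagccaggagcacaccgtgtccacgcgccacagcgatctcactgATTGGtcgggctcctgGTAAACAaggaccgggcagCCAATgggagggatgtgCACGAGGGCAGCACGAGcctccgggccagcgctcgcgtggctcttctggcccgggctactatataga
ARRDC3: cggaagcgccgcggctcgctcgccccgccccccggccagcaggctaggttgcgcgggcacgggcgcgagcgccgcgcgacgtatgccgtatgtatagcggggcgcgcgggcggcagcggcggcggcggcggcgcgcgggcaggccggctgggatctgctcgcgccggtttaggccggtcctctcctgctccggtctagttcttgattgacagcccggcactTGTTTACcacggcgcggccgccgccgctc

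Letters were searched on both strands of the 250 bases before each start in 35116 RefSeq windows. The carbohydrate response element, a pair of E-box-like repeats spaced as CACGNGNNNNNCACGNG, was found 88 to 72 bases before the TXNIP start and in 0.0456% of all windows (16 windows). It contains both matches of the separately searched repeat CACGAG, which 5.58% of windows hold. The forkhead core GTAAACA lay 124 to 118 bases before the TXNIP start and 29 to 23 bases before this ARRDC3 start, and in 2.98% of all windows. The window of the other ARRDC3 start, at base 91383317, which is the start of the longer transcript, held no forkhead core. CCAAT, in 32% of windows, lay 140 to 136 and 105 to 101 bases before the TXNIP start and once each in a window of ARRDC1, of ARRDC2 and of the other ARRDC3 start. TATAAA (10.7% of windows) was found before 1 start of ARRDC2, and TTGCATCA (0.772%), bound by ATF4 with CHOP, in no window of the measured members. The TXNIP positions are those of the start shown; RefSeq has a second TXNIP start, at base 145995744, whose window held none of the letters searched. The ARRDC3 stretch is shared with the antisense gene ARRDC3-AS1, which starts at base 91380347 and runs the other way. These are matches of letters in fixed windows and say nothing of binding in these cells.

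To compare 1 gene between libraries, levels are given in CPM, expected counts relative to the library total after TMM scaling. TXNIP, the thioredoxin-binding member, held 8.30, 7.90 and 8.01 CPM in SNT-8 with DMSO and 27.8, 22.0 and 33.3 CPM with icaritin. All icaritin libraries of this line lay above all DMSO libraries, and replicate 2 was the lowest of them. In SNK-10 TXNIP held 34.2, 36.3 and 35.5 CPM with DMSO and 99.1, 96.2 and 107.1 CPM with icaritin. The DMSO libraries of SNK-10 thus already lay above every icaritin library of SNT-8 and SNT-16. In SNT-16 TXNIP held 9.17, 8.62 and 10.5 CPM with DMSO and 19.4, 21.1 and 23.1 CPM with icaritin, again with no overlap.

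The log2 fold change of TXNIP after icaritin was 1.78 in SNT-8 (SE 0.123, 95% interval 1.53 to 2.03), a 3.43-fold higher level. It was 1.51 in SNK-10 (SE 0.0832, 1.34 to 1.68), or 2.85-fold, and 1.17 in SNT-16 (SE 0.124, 0.92 to 1.42), or 2.25-fold. Of the 14396 genes with enough counts to be fitted, 1.5%, 0.966% and 2.45% had a larger log2 rise in SNT-8, SNK-10 and SNT-16. On the log2 scale the difference was thus largest in SNT-8, while in CPM it was largest in SNK-10, with 65.5 CPM gained against 19.6 in SNT-8 and 11.8 in SNT-16. The log2 response of SNT-16 lay 0.61 below that of SNT-8 (95% interval of the difference -0.98 to -0.24) and 0.34 below that of SNK-10 (0.03 to 0.66). Between SNK-10 and SNT-8 the interval, -0.58 to 0.04, included 0.

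ARRDC3, the adaptor of endosomal cargo, had the largest fold difference of the family in each line. In SNT-8 it held 14.4, 12.9 and 14.6 CPM with DMSO and 57.0, 68.5 and 55.4 CPM with icaritin. Replicate 2 with icaritin, the lowest library of its group for TXNIP, was the highest for ARRDC3. Over the 10599 genes with a mean of at least 50 counts, this library also differed most from the other replicates of its group (chi-square per gene 5.89 and 8.08). Between those other replicates the value was 3.03. SNK-10 had 10.3, 9.76 and 9.62 CPM of ARRDC3 with DMSO and 61.6, 57.1 and 68.8 CPM with icaritin. SNT-16 had 13.7, 14.7 and 16.2 CPM with DMSO and 56.1, 53.1 and 55.5 CPM with icaritin. The groups did not overlap in any line, and all icaritin libraries of the 3 lines lay between 53.1 and 68.8 CPM.

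The log2 fold change of ARRDC3 was 2.11 in SNT-8 (SE 0.0913, 95% interval 1.93 to 2.30), 2.66 in SNK-10 (SE 0.0985, 2.46 to 2.86) and 1.88 in SNT-16 (SE 0.0910, 1.70 to 2.07), that is 4.32-fold, 6.31-fold and 3.69-fold. In SNK-10 only 23 of the 14396 genes had a larger rise. The share with a larger rise was 0.792% in SNT-8 and 0.806% in SNT-16. The log2 response of SNK-10 lay 0.55 above that of SNT-8 (0.25 to 0.84) and 0.77 above that of SNT-16 (0.48 to 1.06). SNT-16 and SNT-8 differed by -0.23, with an interval of -0.50 to 0.05 that included 0. SNK-10 also had the lowest ARRDC3 of the lines with DMSO, and the same DMSO libraries enter both comparisons.

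ARRDC2 was somewhat higher after icaritin in the 3 lines on the mean, and its libraries separated in SNT-8 and SNK-10. In SNT-8 it held 17.4, 18.2 and 17.4 CPM with DMSO and 22.8, 27.6 and 21.3 CPM with icaritin, a log2 difference of 0.43 (SE 0.0987, 0.23 to 0.63). SNK-10 had 15.5, 15.4 and 17.4 CPM with DMSO and 23.2, 20.4 and 21.8 CPM with icaritin, a log2 difference of 0.44 (SE 0.104, 0.23 to 0.65). In SNT-16 the DMSO libraries held 14.3, 17.1 and 16.3 CPM and the icaritin libraries 17.9, 18.4 and 16.6 CPM, and the groups overlapped. The log2 difference there was 0.15 (SE 0.105, -0.07 to 0.36). The intervals of the 3 pairwise differences between lines all included 0, with bounds between -0.58 and 0.59.

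ARRDC1, the vesicle-budding member, overlapped between DMSO and icaritin in each line. In SNT-8 it held 10.3, 10.9 and 8.71 CPM with DMSO and 10.9, 9.33 and 14.0 CPM with icaritin. SNK-10 had 10.0003, 9.55 and 9.62 CPM with DMSO and 10.2, 9.89 and 8.99 CPM with icaritin. SNT-16 had 12.7, 12.8 and 14.6 CPM with DMSO and 14.7, 13.2 and 13.7 CPM with icaritin. Neither treatment was the higher throughout in any line. Its log2 differences were 0.19 (-0.07 to 0.46), -0.0049 (-0.28 to 0.27) and 0.06 (-0.19 to 0.30) in SNT-8, SNK-10 and SNT-16. With 82 to 151 expected counts of ARRDC1 a library, these intervals still hold differences of up to 0.46.

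**Figure D1:**
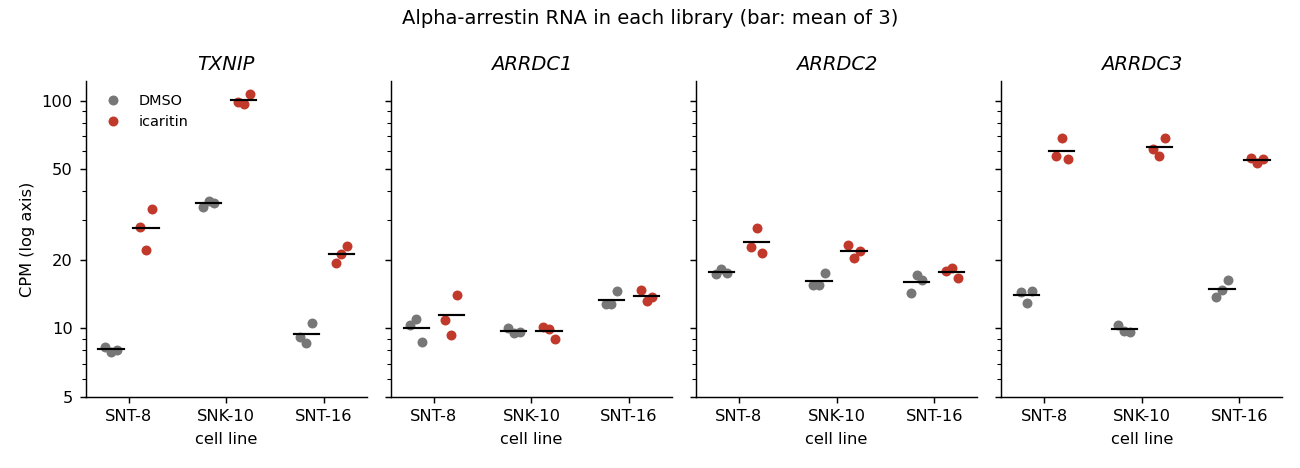
CPM of TXNIP, ARRDC1, ARRDC2 and ARRDC3 on a shared log axis, with 1 point for each library (grey DMSO, red icaritin) and a bar at the mean of 3. TXNIP and ARRDC3 separate by treatment in every line, TXNIP is high in SNK-10 also with DMSO (34.2 to 36.3 CPM), and ARRDC3 ends between 53.1 and 68.8 CPM in all 3 lines.

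Over the members, 2 of 4 (TXNIP and ARRDC3) were higher with no overlap between icaritin and DMSO libraries in all 3 lines, and 14.3% of all fitted genes did the same. Line by line the count was 3 of 4 in SNT-8, 3 of 4 in SNK-10 and 2 of 4 in SNT-16, against 26.5%, 27.8% and 26.6% of all genes. These counts describe the choice of the family, which used the same contrast, and nothing is read from them. All 4 measured members passed the filter on low counts, with lowest expected counts in any library of 78 for TXNIP, 82 for ARRDC1, 140 for ARRDC2 and 91 for ARRDC3.

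**Figure D2:**
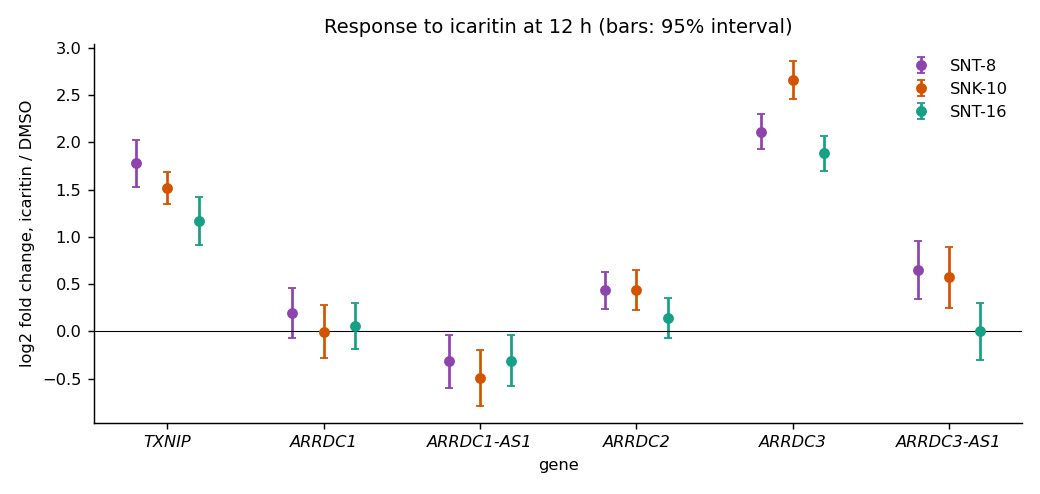
Log2 fold change, icaritin over DMSO, of the 4 measured members and of the antisense genes that overlap ARRDC1 and ARRDC3, with 95% intervals, 1 colour a line. ARRDC3 and TXNIP lie between 1.17 and 2.66, ARRDC2 between 0.15 and 0.44, and the intervals of ARRDC1 include 0.

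ARRDC3 and ARRDC1 each overlap an antisense gene in the annotation, and whether the counting used strand is not given in the sources used here. How reads of the overlap were assigned is thus not known. Expected counts of ARRDC3 (91 to 683) and ARRDC1 (82 to 151) were whole numbers in every library. Those of ARRDC3-AS1 (69.02 to 173.14) and ARRDC1-AS1 (65.32 to 138.55) were fractional. Whether reads were shared within a pair was not tested. ARRDC3-AS1 held 9.11, 9.52 and 9.91 CPM with DMSO and 16.5, 17.4 and 11.01 CPM with icaritin in SNT-8. In SNK-10 it held 7.26, 8.29 and 9.62 CPM with DMSO and 10.4, 15.6 and 11.4 CPM with icaritin. SNT-16 had 11.01, 11.4 and 11.3 CPM with DMSO and 12.7, 10.3 and 10.8 CPM with icaritin. The antisense gene was thus higher after icaritin without overlap in SNT-8 and SNK-10 and overlapped in SNT-16. Its log2 differences were 0.65 (SE 0.148), 0.57 (SE 0.160) and 0.00043 (SE 0.150), each far below that of ARRDC3 in the same line. In FPKM, the authors' fragment values scaled by transcript length and library, ARRDC3 was at 0.573 to 0.916 times ARRDC3-AS1 in the DMSO libraries and at 1.999 to 3.49 times in the icaritin libraries. With the counts of the pair added together, the log2 difference of ARRDC3 with its antisense gene was 1.68 in SNT-8, 2.03 in SNK-10 and 1.34 in SNT-16.

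ARRDC1-AS1 was lower after icaritin on the mean, with log2 differences of -0.32 (SE 0.139), -0.49 (SE 0.144) and -0.31 (SE 0.133) in SNT-8, SNK-10 and SNT-16. Its DMSO and icaritin libraries did not overlap in SNT-8 and SNK-10 and overlapped in SNT-16. With its counts added to ARRDC1, the log2 difference of the pair was -0.06 in SNT-8, -0.26 in SNK-10 and -0.12 in SNT-16, where ARRDC1 alone had 0.19, -0.0049 and 0.06. TXNIP and ARRDC2 overlap no other gene in the annotation.

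The choice of the family did not use the contrast between lines without icaritin. The DMSO libraries of this contrast do enter the fold changes used for that choice, so its p-values are not independent of the choice. Among the members, TXNIP differed most between SNK-10 and each SNT line without icaritin. In the DMSO libraries it was higher in SNK-10 than in SNT-8, with a log2 difference of 2.13 (SE 0.119) or 4.38-fold and an adjusted p of 5.66e-18 by edgeR's quasi-likelihood test with Benjamini-Hochberg adjustment over all genes. Against SNT-16 it was higher in SNK-10 by 1.90 on the log2 scale (SE 0.115, edgeR adjusted p = 5.62e-17), or 3.74-fold. Larger differences in either direction were held by 8.86% and 9.99% of all genes in these comparisons. SNT-16 and SNT-8 differed in TXNIP by 0.23 (95% interval -0.08 to 0.53, edgeR adjusted p = 0.367), although the libraries, 8.62 to 10.5 CPM against 7.90 to 8.30 CPM, did not overlap; 33% of all genes did not overlap between these groups either.

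ARRDC3 was lower in the DMSO libraries of SNK-10 than in those of SNT-8, by 0.49 on the log2 scale (-0.49, SE 0.124, edgeR adjusted p = 0.000733), and than in those of SNT-16 (-0.59, SE 0.122, edgeR adjusted p = 7.37e-05). No difference passed the threshold between SNT-16 and SNT-8 (0.09, interval -0.14 to 0.32, edgeR adjusted p = 0.676). With DMSO, the line with the highest TXNIP was thus the line with the lowest ARRDC3.

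ARRDC1 was higher in the DMSO libraries of SNT-16 than in SNK-10, where the log2 difference of SNK-10 minus SNT-16 was -0.46 (SE 0.129, edgeR adjusted p = 0.00239). SNT-16 also exceeded SNT-8, by 0.42 (SE 0.127, edgeR adjusted p = 0.0222). That call was lost when the third DMSO library of SNT-8 was left out (0.33, edgeR adjusted p = 0.148), when the third of SNT-16 was left out (0.35, edgeR adjusted p = 0.123) and with DESeq2 (0.41, adjusted p = 0.0666). SNK-10 and SNT-8 differed in ARRDC1 by -0.04 (edgeR adjusted p = 0.834).

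ARRDC2 passed the threshold in none of the 3 comparisons by edgeR, with differences of -0.13, 0.02 and -0.15 on the log2 scale, adjusted p of 0.290, 0.908 and 0.394, and 95% intervals that together span -0.36 to 0.23. In all, 2 of the 4 members differed between SNK-10 and SNT-8, where 57.6% of all genes were called, 3 of 4 between SNK-10 and SNT-16, where 57.8% were called, and 1 of 4 between SNT-16 and SNT-8, where 13.2% were called.

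**Figure D3:**
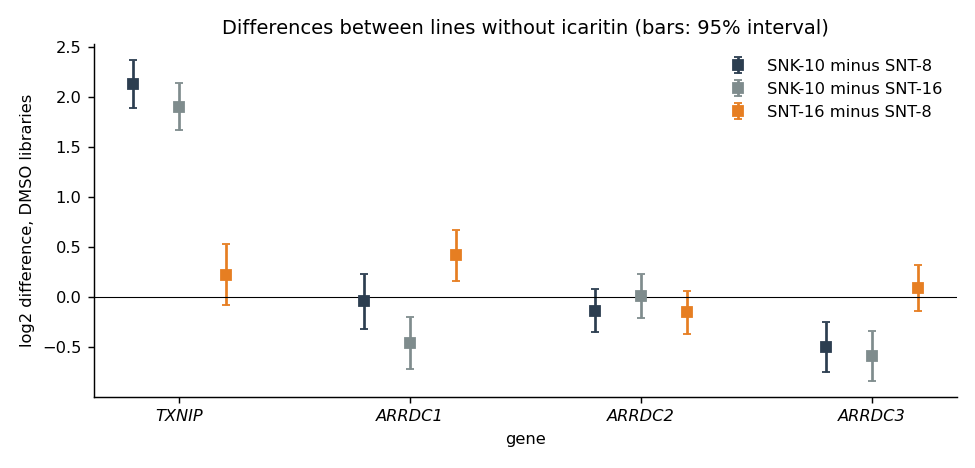
Log2 difference between lines in the DMSO libraries for each member, with 95% intervals; dark squares are SNK-10 minus SNT-8, grey SNK-10 minus SNT-16 and orange SNT-16 minus SNT-8. TXNIP stands at 2.13 and 1.90 in SNK-10, and the other members lie between -0.59 and 0.42.

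Levels of different genes were compared only in FPKM, which allows for transcript length. With DMSO, SNT-8 had ARRDC2 first (6.86 ± 0.204 FPKM, SD, n = 3), then ARRDC1 (5.93 ± 0.745), ARRDC3 (3.17 ± 0.236) and TXNIP (2.65 ± 0.0611), with no overlap between neighbours. SNK-10 had TXNIP first (11.6 ± 0.370 FPKM), then ARRDC2 (6.20 ± 0.448), ARRDC1 (5.80 ± 0.0346) and ARRDC3 (2.23 ± 0.0945), again with no overlap. SNT-16 had ARRDC1 first (8.27 ± 0.592 FPKM), then ARRDC2 (6.36 ± 0.587), while ARRDC3 (3.48 ± 0.311) and TXNIP (3.21 ± 0.329) overlapped. TXNIP was thus the lowest member in both SNT lines and the highest in SNK-10.

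With icaritin, ARRDC3 stood first in SNT-8 (14.2 ± 1.496 FPKM) and the other members, ARRDC2 (9.55 ± 1.16), TXNIP (9.44 ± 2.07) and ARRDC1 (7.05 ± 1.51), overlapped with their neighbours in the order. In SNK-10 TXNIP stayed first (32.2 ± 0.998 FPKM), ahead of ARRDC3 (13.8 ± 0.991), ARRDC2 (8.21 ± 0.562) and ARRDC1 (5.64 ± 0.543), none overlapping. In SNT-16 ARRDC3 came first (13.1 ± 0.515 FPKM), then ARRDC1 (8.68 ± 0.549), while TXNIP (7.41 ± 0.523) and ARRDC2 (7.18 ± 0.427) overlapped.

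The summed FPKM of the 4 members went from 18.6 ± 0.651 to 40.2 ± 1.70 in SNT-8, from 25.9 ± 0.475 to 59.8 ± 1.74 in SNK-10 and from 21.3 ± 1.45 to 36.4 ± 0.910 in SNT-16 (SD, n = 3 each). With DMSO, TXNIP made up 14.3% of this sum in SNT-8, 15.04% in SNT-16 and 44.9% in SNK-10. With icaritin its share was 23.4%, 20.4% and 53.8% in SNT-8, SNT-16 and SNK-10. ARRDC3 went from 17.1% to 35.3% of the sum in SNT-8, from 8.64% to 23.0% in SNK-10 and from 16.3% to 36.0% in SNT-16. ARRDC1, whose own level overlapped between treatments, went from 31.8% to 17.5% in SNT-8, from 22.4% to 9.44% in SNK-10 and from 38.8% to 23.9% in SNT-16.

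**Figure D4:**
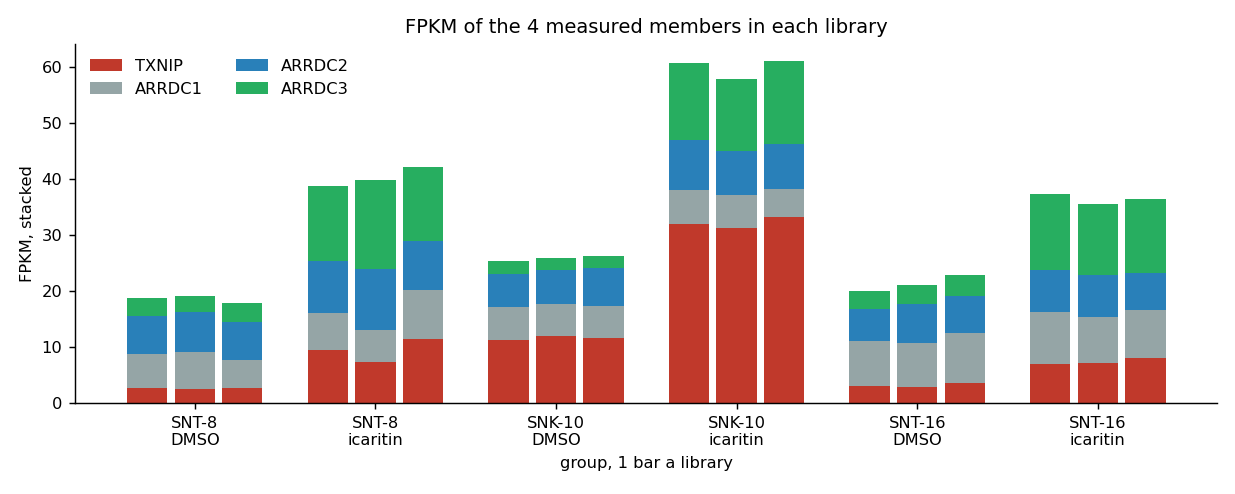
FPKM of the 4 measured members stacked in 1 bar for each library, by group. The bars reach 17.9 to 26.3 FPKM with DMSO and 35.5 to 61.0 FPKM with icaritin, with TXNIP (red, at the base) the largest part in SNK-10 and ARRDC3 (green, at the top) the largest in the icaritin bars of both SNT lines.

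For each member, the genes with the most similar pattern were those with the smallest root mean square difference of centred log2 CPM over the 18 libraries, among 9331 genes with a mean of at least 10 CPM. Nearest to ARRDC3 were CREBRF, a regulator of the CREB3 factor (0.167), KLHL24, an adaptor of a ubiquitin ligase (0.196), and SESN1, a sestrin (0.294), against a median of 1.15 over all genes compared. Nearest to TXNIP were TRIB1, a pseudokinase (0.231), GPT2, the mitochondrial alanine aminotransferase (0.343), and RPS6KA5, a stress-activated kinase (0.346), against a median of 1.24. ARRDC2 lay nearest to CREBBP (0.105), RBM3 (0.111) and TAB2 (0.112), and ARRDC1 to C2orf68 (0.130), ZBTB32 (0.130) and IL4I1 (0.131), with medians of 0.340 and 0.342. No member was among the nearest of another, and TXNIP and ARRDC3 differed by 1.14 in the same measure. All libraries are shared by these patterns, and the values are descriptions.

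The other genes of the pathway were taken from 10 lists of 127 genes in all, of which 108 had enough counts to be tested. By edgeR's quasi-likelihood test, 25.0% of the 108 rose in SNT-8, 33.3% in SNK-10 and 25.9% in SNT-16, where 24%, 24.4% and 21.2% of all genes rose. In the same order 21.3%, 18.5% and 17.6% of the 108 fell, against 25%, 24% and 20.8% of all genes. The median log2 fold change of the listed genes was 0.04, 0.09 and 0.05, beside 0.02, 0.01 and 0.02 over all genes.

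Of 9 tested transcription factors that act on TXNIP, 2 rose and 3 fell in SNT-8 and 4 rose and 1 fell in SNK-10. In SNT-16, 2 rose and 2 fell. Those that rose were 22.2%, 44.4% and 22.2% of the 9, where 24%, 24.4% and 21.2% of all genes rose. Those that fell were 33.3%, 11.1% and 22.2%, where 25%, 24% and 20.8% of all genes fell. FOXO3, a forkhead factor, went from 30.8 to 57.3 CPM in SNT-8, from 18.8 to 41.9 in SNK-10 and from 25.3 to 44.1 in SNT-16. Its log2 fold changes were 0.89, 1.16 and 0.80, with the weakest edgeR adjusted p at 2.92e-11. NR3C1, the glucocorticoid receptor, rose by 0.69, 1.02 and 0.59 on the log2 scale and reached 269 CPM in SNK-10. MLX, the partner that MLXIP needs to bind carbohydrate response elements, fell by 0.48, 0.26 and 0.34, and MLXIP itself did not pass the threshold in any line (0.02, -0.16 and -0.04). FOXO1 fell in SNT-8 (-0.38) and SNT-16 (-0.28) and had -0.16 in SNK-10 with an edgeR adjusted p of 0.171.

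Of the 4 MXD and MNT group genes, which encode repressors that pair with MAX or MLX, MXD1 rose in every line. It went from 6.76 to 23.9 CPM in SNT-8, from 14.4 to 50.4 in SNK-10 and from 8.37 to 25.6 in SNT-16, log2 fold changes of 1.82, 1.81 and 1.61 (SE 0.113, 0.0909 and 0.107, edgeR adjusted p no weaker than 1.53e-15). MGA fell in every line (-0.19, -0.23 and -0.23). MXD4 rose in SNT-8 (0.37) and had -0.06 and 0.07 in the other lines, and MNT was at 0.07 in each and passed in none.

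Among AMPK subunits and LKB1, 3 of 6 tested genes rose in each line and 1 fell, in SNK-10. This 50% stood beside 24%, 24.4% and 21.2% of all genes that rose in SNT-8, SNK-10 and SNT-16. The 16.7% that fell in SNK-10 stood beside 24% of all genes. PRKAG2, among the 6, had 0 CPM in SNT-8 and SNT-16 and could not be called there. The risers were the same in every line: the regulatory subunit genes PRKAB1 (0.95, 0.87 and 0.85), PRKAB2 (0.74, 0.66 and 0.45) and PRKAG1 (0.23, 0.30 and 0.20, in SNT-8, SNK-10 and SNT-16). The catalytic subunit gene PRKAA1 passed in none (0.06, -0.01 and 0.04), and STK11, which encodes LKB1, fell in SNK-10 (-0.20).

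The thioredoxin system, which TXNIP binds at thioredoxin itself, had 19 tested genes. In SNT-8 10 fell and 0 rose, in SNK-10 6 fell and 2 rose, and in SNT-16 6 fell and 1 rose, with list medians of -0.22, -0.01 and -0.09 beside 0.02, 0.01 and 0.02 over all genes. Those that fell were 52.6%, 31.6% and 31.6% of the tested genes, where 25%, 24% and 20.8% of all genes fell. The peroxiredoxin genes PRDX1 (-0.37, -0.22 and -0.23), PRDX3 (-0.48, -0.12 and -0.28) and PRDX4 (-0.42, -0.46 and -0.22) fell in all 3 lines, as did SRXN1, the sulfiredoxin that restores oxidised peroxiredoxins (-0.59, -0.26 and -0.28). TXNRD1, the cytosolic thioredoxin reductase, fell in SNT-8 (-0.43) and SNT-16 (-0.14) and had -0.02 in SNK-10. PRDX6 rose in SNK-10 (0.18) and SNT-16 (0.13). TXN, the thioredoxin gene, passed the threshold in no line, with -0.07, 0.01 and 0.11.

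The glucose uptake and trapping list took in SLC2A family genes whether or not glucose is their main cargo. It had 12 tested genes, of which 4 rose and 1 fell in SNT-8, 2 rose and 3 fell in SNK-10 and 4 rose and 1 fell in SNT-16. The risers were 33.3%, 16.7% and 33.3% of the list, where 24%, 24.4% and 21.2% of all genes rose. The fallers were 8.33%, 25% and 8.33%, where 25%, 24% and 20.8% of all genes fell. The transporter genes SLC2A3 (0.27, 0.26 and 0.34) and SLC2A8 (0.61, 0.62 and 0.33) rose in all lines. SLC2A11 (0.81 and 0.69) and SLC2A13 (0.49 and 0.59) rose in SNT-8 and SNT-16 and passed in neither case in SNK-10 (0.19 and -0.03). HK1, a hexokinase that traps glucose as its phosphate, fell by 0.13 in each line. HK2 fell in SNK-10 from 91.7 to 49.5 CPM (-0.89, SE 0.135, edgeR adjusted p = 7.99e-05) and had -0.06 and -0.03 in SNT-8 and SNT-16. SLC2A1, the transporter gene best known as a TXNIP cargo, fell in SNK-10 (-0.25) and had 0.08 and 0.18 in SNT-8 and SNT-16, which did not pass.

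The NEDD4 family ligases and their adaptors had 10 tested genes, with 2 rising and 2 falling in SNT-8. In SNK-10 5 rose and 1 fell, and in SNT-16 3 rose and 3 fell. Rising were 20%, 50% and 30% of the list, where 24%, 24.4% and 21.2% of all genes rose. Falling were 20%, 10% and 30%, where 25%, 24% and 20.8% of all genes fell. HECW2 fell from 142 to 68.9 CPM in SNT-8, from 31.8 to 16.1 in SNK-10 and from 169 to 82.3 in SNT-16. Its log2 fold changes were -1.04, -0.98 and -1.04, with edgeR adjusted p no weaker than 2.61e-12. WWP1, a ligase known to bind alpha-arrestins, rose by 0.42, 0.39 and 0.62. NDFIP2, an adaptor of these ligases, fell in SNT-8 (-0.60) and SNT-16 (-0.30) and had -0.04 in SNK-10, where NDFIP1 rose (0.31). ITCH, the ligase of TXNIP, rose in SNK-10 (0.14, edgeR adjusted p = 0.0386) and passed in neither SNT line (0.13 and 0.07).

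Of 30 ESCRT genes, which sort ubiquitinated cargo, 9 rose and 2 fell in SNT-8, 14 rose and 2 fell in SNK-10 and 8 rose and 3 fell in SNT-16, with medians of 0.07, 0.18 and 0.06. Those that rose were 30%, 46.7% and 26.7% of the list, where 24%, 24.4% and 21.2% of all genes rose. VPS37A (0.28, 0.38 and 0.41), VPS37B (0.29, 0.43 and 0.18) and MVB12B (0.21, 0.69 and 0.18), subunits of the first sorting complex, rose in every line. CHMP7 fell in every line (-0.44, -0.28 and -0.29). TSG101, which ARRDC1 recruits, did not pass in any (-0.12, -0.02 and -0.02).

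Of 6 tested genes with the arrestin fold outside the family, 2, 3 and 3 rose in SNT-8, SNK-10 and SNT-16, and 1 fell in each. The 33.3%, 50% and 50% that rose stood beside 24%, 24.4% and 21.2% of all genes. The 16.7% that fell stood beside 25%, 24% and 20.8%. ARRB2, a beta-arrestin, fell in each line (-0.22, -0.37 and -0.28). VPS26B and VPS26C rose in each (0.16, 0.26 and 0.15, and 0.26, 0.29 and 0.22), and VPS26A rose in SNK-10 (0.22) and SNT-16 (0.15). ARRDC5, an ARRDC gene of the family itself but not among the 5 named members, was listed in 13 of 18 libraries. It had at most 2.03 expected counts and was not tested.

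Known cargo of the family gave 4 tested genes. IGF1R rose in SNT-8 and SNT-16 from very low levels (0.135 to 0.563 and 0.133 to 0.492 CPM, edgeR adjusted p = 0.0222 and 0.0493), SLC11A2, an iron transporter, fell in SNK-10 (-0.61), and NOTCH1 passed in no line. Of 8 tested inflammasome genes, a set linked to TXNIP through NLRP3, 2 rose in each line and 3, 3 and 2 fell. The 25% that rose in each line stood beside 24%, 24.4% and 21.2% of all genes. The 37.5%, 37.5% and 25% that fell stood beside 25%, 24% and 20.8%. PYCARD, among the 8, had group means of 16.3 and 16.9 CPM in SNK-10. It had 0 CPM in SNT-8 and group means of at most 0.134 CPM in SNT-16. AIM2 fell (-1.002, -0.62 and -0.44) and GSDMD fell (-0.22, -0.26 and -0.22), while NEK7 (0.67, 0.22 and 0.63) and NLRP1 (0.89, 0.31 and 0.58) rose in all lines. NLRP3 itself was at 0.950 to 1.44 CPM on the group means and passed in no line.

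**Figure D5:**
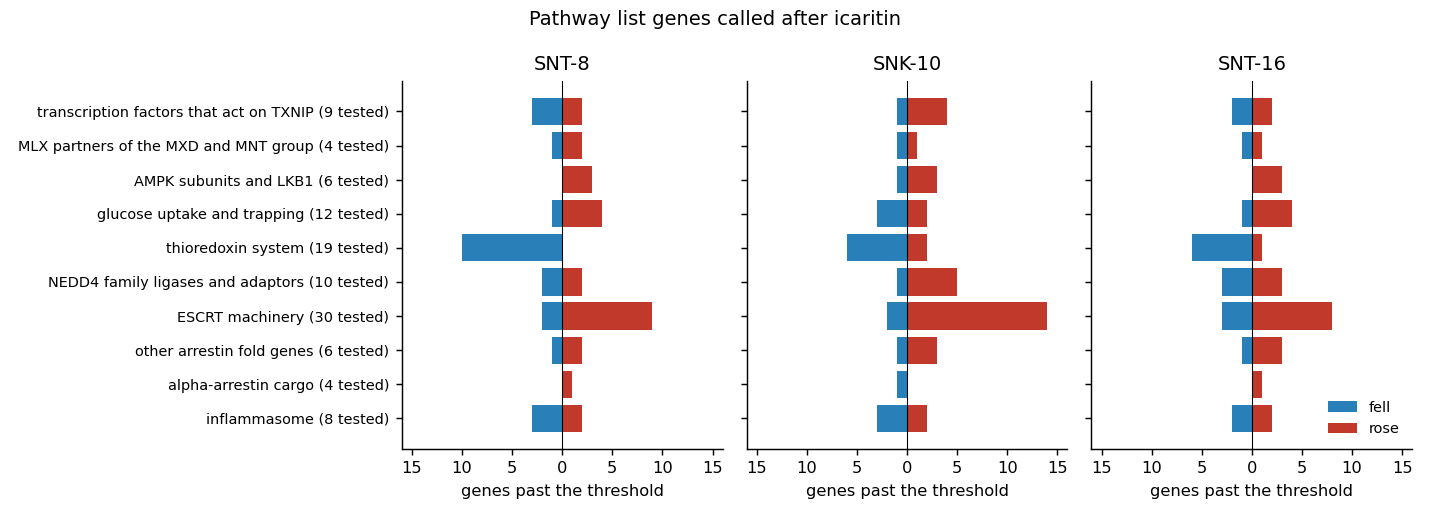
Number of genes past the threshold that rose (red, to the right) or fell (blue, to the left) after icaritin, for each of the 10 pathway lists and each line; the number tested is beside the list name. The thioredoxin list has 10, 6 and 6 genes to the left (52.6%, 31.6% and 31.6%, against 25%, 24% and 20.8% of all genes). The ESCRT list has 9, 14 and 8 to the right (30%, 46.7% and 26.7%, against 24%, 24.4% and 21.2% of all genes).

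Library totals ran from 9526431 to 10100453 expected counts. The mitochondrial ribosomal RNA gene RNR2 took 0.830% to 1.55% of the counts with DMSO and 1.65% to 5.12% with icaritin, and its part in the differences of the members was not tested. All 10 NK and T cell markers were found in every library, CD3E at 289 to 388 CPM and PRF1 at 575 to 876 CPM, and their sum was lower with icaritin without overlap in each line (4122 to 4348 against 3689 to 4018 CPM in SNT-8, 2832 to 2928 against 2572 to 2688 in SNK-10, 4557 to 4685 against 4134 to 4336 in SNT-16). Among B cell markers MS4A1 did not exceed 0.108 CPM and PAX5 held 1.32 to 15.4 CPM. The 5 B cell markers summed to 13.1 to 15.9 CPM with DMSO and 7.28 to 8.55 with icaritin in SNT-8, to 14.1 to 14.7 and 10.7 to 11.7 in SNT-16, and overlapped in SNK-10 (1.78 to 2.96 and 1.64 to 2.71). Of the 4 monocyte and macrophage markers with a row, CD14 did not exceed 0.325 CPM, while LYZ (9.42 to 15.4 CPM), CSF1R (1.26 to 13.5) and CD68 (5.62 to 19.8) were found in every library; their sum ran from 26.0 to 37.4 CPM and overlapped between treatments in each line. The erythroid markers summed to at most 0.316 CPM. The epithelial markers summed to 4.86 to 6.01 CPM with DMSO and 6.69 to 7.32 with icaritin in SNT-8. In SNK-10 they summed to 6.61 to 7.16 and 8.99 to 9.46, and they overlapped in SNT-16 (4.75 to 7.54 and 4.74 to 7.60). Of these markers KRT8 (1.21 to 3.69 CPM), KRT18 (0.495 to 1.57) and CDH1 (1.48 to 5.59) were found in every library, while KRT19 was at or below 0.101 CPM. The 5 fibroblast markers summed to 3.04 to 4.10 CPM with DMSO and 10.4 to 11.9 CPM with icaritin in SNT-8. Their sums were 8.42 to 11.7 and 12.04 to 13.9 CPM in SNK-10, and 3.07 to 4.56 and 8.29 to 8.98 CPM in SNT-16. COL1A1 was found in every library at 2.11 to 11.8 CPM. COL1A2 reached 6.30 CPM and COL3A1 2.10 CPM, both with their highest line median in SNK-10 (4.75 and 1.65 CPM). DCN and LUM were at or below 0.304 CPM. The part of these marker sums in the results was not tested. In such bulk RNA a change in the number of cells of a type and a change in RNA per cell cannot be told apart.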

How the data were processed

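RNA of 18 libraries was analysed. Per the labels' protocols, total RNA was extracted with Trizol and 1 ug went into an MGIEasy library kit. Per the submitters' processing notes, Bowtie2 and HISAT were used; for their versions, the genome build, the counting tool and its strand setting, nothing is stated (not given in the sources used here). The deposited files give, per the file headers, an expected count per gene, the authors' FPKM and a mean transcript length (an other unit, used as a description). Depth and the listing floor bear on low genes: each file lists 16996 to 17461 genes with FPKM of at least 0.01, and a gene without a row was taken as 0. Symbols came from an annotation table of GRCh38.p14 by gene ID (21559 of 21662) or by transcript (24); 79 IDs had none.

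Expected counts were rounded and fitted in edgeR 4.0.16 (R 4.3.3) with filterByExpr (minimum count 10, minimum total 15; 14396 genes kept), TMM scaling, a mean for each of 6 groups, 12 residual degrees of freedom and robust quasi-likelihood. Tests were two-sided with Benjamini-Hochberg adjustment over all genes and a threshold of 0.05. Standard errors are the absolute log2 fold change over the square root of F. The procedure was also run on counts simulated with its own fitted dispersions, a check of the code that says nothing of how well the model suits these data. Replicates differed by more than sampling noise (chi-square per gene 1.36 to 8.08 over 10599 genes). The highest values, 5.89 and 8.08, were those of replicate 2 of SNT-8 with icaritin. Alternatives were other scalings, no filter, DESeq2 1.42.0, limma 3.58.1 on log2 FPKM, fits on the compared groups alone, a replicate block and each library left out.

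Members and lists were chosen with earlier results of these data known. Named genes are the members, tested genes overlapping them, up to 4 genes of each list with the smallest p of the mean icaritin response, called genes that say what a mixed list holds, and the 3 genes most like each member. A few further listed genes (MLXIP, PRKAA1, TXN, SLC2A1, ITCH, TSG101, NLRP3 and ARRDC5) are named for their known roles and were chosen after their values were seen. PRKAG2 and PYCARD are named for their absent or very low counts in the SNT lines. WWP2, MSRB1 and NEDD4 are named only because their icaritin response differed between the lines. A named gene of the cargo list and a marker gene are not reported here.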

Additional observations from a re-analysis of the deposited data

Results flagged for a closer look

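For 13 of the listed pathway genes named above, the icaritin response differed between the 3 lines. This was by the interaction test of edgeR with 2 degrees of freedom, adjusted over all genes, which 14.3% of all genes passed. Most genes were named for a small p of their mean response, so their count is not to be set against that share. Listed genes not named above passed it too, among them WWP2 (adjusted p = 3.26e-05), MSRB1 (0.0251) and NEDD4 (0.0357). WWP2 rose in SNK-10 (0.20), fell in SNT-16 (-0.40) and did not pass in SNT-8 (-0.08). MVB12B (adjusted p = 6.02e-05), NR3C1 (0.000288) and SLC11A2 (0.0149) had their largest log2 change in SNK-10, at 0.69, 1.02 and -0.61. HK2 (adjusted p = 0.0101) and SLC2A1 (0.0353) fell past the threshold in SNK-10 alone, at -0.89 and -0.25. The changes of NEK7 (adjusted p = 0.00022), NLRP1 (0.0169), SLC2A11 (0.0372), TXNRD1 (0.000312), NDFIP2 (0.000685), PRDX3 (0.000919) and SRXN1 (0.0104) were smallest in size in SNK-10, and that of AIM2 (0.000257) was largest in SNT-8, at -1.002. The members themselves were not put to this test.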

How the results depend on the processing

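No called value of the members changed sign under the alternatives run, and the scaling alternatives kept the median of all genes within 0.1 of 0 on the log2 scale. The higher ARRDC1 of SNT-16 than of SNT-8 in DMSO lost its call with DESeq2 (0.41, adjusted p = 0.0666) and without the third DMSO library of SNT-8 (0.33) or of SNT-16 (0.35), with 0.33 to 0.49 over the libraries left out in turn; over all its alternatives the adjusted p ran from 0.00735 to 0.148. On log2(FPKM + 1), which shrinks low genes, limma gave 1.39 for TXNIP in SNK-10, 1.86, 2.19 and 1.65 for ARRDC3 in SNT-8, SNK-10 and SNT-16, and 0.54 for the ARRDC3 response of SNK-10 minus SNT-16. On log2(FPKM + 0.1) without a filter, 12 listed genes fell in SNT-16 in place of 19; the cause was not tested. Adding antisense counts, an alternative chosen after seeing the data, gave -0.06, -0.26 and -0.12 for ARRDC1 in SNT-8, SNK-10 and SNT-16, where the sign in SNT-8 and SNT-16 turned, and 1.68, 2.03 and 1.34 for ARRDC3. Over all alternatives TXNIP stayed between 1.496 and 1.92 in SNT-8, 1.39 and 1.55 in SNK-10 and 1.00 and 1.25 in SNT-16. For single listed genes, 3923 values kept direction and call, 156 (of 25 gene and line results) lost the call and 31 gained it. The replicate numbers did not pair the samples: of 9 pairs of same-numbered libraries 0 had a correlation of deviations above 0.1 (-0.13 to 0.04), and 1 sample correlated best with its own number. With the replicate block, genes called after icaritin went from 7062 to 6847, 6970 to 6788 and 6051 to 5819, TXNIP had 1.77, 1.51 and 1.17, and 34 listed genes rose in SNK-10 in place of 36; the block changed no call of a member. Depth limits the members with low counts, with lowest expected counts a library of 78 for TXNIP and 82 for ARRDC1.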
